A study of Mus musculus with 6 samples.

Results

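The genes described here are 9 that are commonly used to recognise the epithelium of the tooth: the keratins Krt5, Krt14, Krt15 and Krt17, the adhesion molecules Cdh1 and Epcam, the secreted ligand Shh, and the transcription factors Trp63 and Sp6. They were chosen by name, and their values were read from the deposited table of 23718 genes. The table listed 8 of the 9, and Krt15 was not analysed here. All 8 listed genes averaged 1 or more across the 6 samples and entered the test, but Krt17 and Epcam reached that level only through the TAC samples.

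RNA was sequenced from the incisors of mice that were 1 month old, with C57BL/6 as the strain in the labels and a mixed genetic background in the study's methods. The mesenchymal stem cell (MSC) group was 3 samples of Gli1+ cells from Gli1-CreER;tdT mice, and the transit amplifying cell (TAC) group was 3 samples of Axin2+ cells from Axin2-CreER;tdT mice. Both genotypes carry a tamoxifen-inducible Cre and a red fluorescent tdT reporter, and both were given tamoxifen before collection. Laser capture microdissection was used to cut the cells from tissue sections, so each sample is a captured region defined by its driver. The study describes the captured cells as mesenchyme, and the comparison asks what distinguishes stem cells from their dividing progeny. The methods give as many mice as samples in each group and mention sample pairs, but neither they nor the labels say that each sample was a separate mouse or how a pair was formed. The p-values below therefore measure the spread between samples.

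The mouse incisor grows throughout life from its proximal end, where an epithelial layer lies against the dental mesenchyme. Basal epithelial cells build their intermediate filaments from paired keratins, Krt5 with Krt14, and hold together through E-cadherin, the product of Cdh1. Dental epithelium also secretes sonic hedgehog, encoded by Shh, which acts on the neighbouring mesenchyme. In textbook accounts the keratins, Cdh1, Epcam, Shh and Trp63 mark tooth epithelium, while dental mesenchyme makes Vim and fibrillar collagens. Sp6 is known from dental epithelium and also from odontoblasts, the dentin-forming cells of the mesenchyme, so its level does not mark epithelium alone.

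The sequences that bear on how these genes can be counted are stretches that a 75-base read cannot assign to 1 gene. Such stretches were searched in the GENCODE M21 transcripts of the mouse build mm10. In Krt14, 5.91% of 75-base windows also occurred in Krt16. In Krt5, 7.77% also occurred in Krt6a, Krt6b or 3 predicted genes. The longest run that Krt14 shares with Krt16 lies in the coding part of the transcript, at positions 399 to 532 of Krt14, and is shown because reads from it could come from either gene.
Krt14 and Krt16: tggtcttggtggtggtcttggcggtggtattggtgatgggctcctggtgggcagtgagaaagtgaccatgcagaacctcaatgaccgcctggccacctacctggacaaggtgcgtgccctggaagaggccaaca
Krt14 and Krt17 shared a run of at most 71 bases, shorter than a read, and Krt17, Cdh1, Epcam and Trp63 had no shared window. Krt6a had between 0 and 1 estimated reads in every library except TAC replicate 3, where it had 1148. Krt16 and Krt6b were not analysed here. Shh shared 21.1% of its windows and Sp6 shared 91.7% with genes annotated on the opposite strand, 9530036O11Rik and Gm26894 for Shh and Gm11532 for Sp6. The use of strand in counting was not stated, so reads of Sp6 and Gm11532 cannot be told apart.

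On mm10, Krt14 lies on chromosome 11 from 100203162 to 100207548 and Krt17 on the same chromosome from 100256217 to 100261029, both on the minus strand. Sp6 is on the plus strand of chromosome 11, from 97013394 to 97024734. Shh lies on the minus strand of chromosome 5 from 28456815 to 28467256, and Cdh1 on the plus strand of chromosome 8 from 106603351 to 106670246. Krt5 lies on the minus strand of chromosome 15, from 101707070 to 101712898 in GENCODE. Trp63 starts at 25683763 on the plus strand of chromosome 16 and Epcam at 87635979 on the plus strand of chromosome 17. Promoter windows around the start site were given by RefSeq (GRCm38.p6) for Krt5, Krt14 and Epcam of the 9 genes. The Krt14 window lay inside the gene as annotated and is not shown. The other windows are shown because the set holds a p53 family factor, Trp63, and an Sp family factor, Sp6, for which a motif could be searched on both strands. Capitals mark the p53 family motif in Krt5 and GGGCGG, read on the opposite strand, in Epcam.
Krt5, chr15:101712856-101713155, minus strand: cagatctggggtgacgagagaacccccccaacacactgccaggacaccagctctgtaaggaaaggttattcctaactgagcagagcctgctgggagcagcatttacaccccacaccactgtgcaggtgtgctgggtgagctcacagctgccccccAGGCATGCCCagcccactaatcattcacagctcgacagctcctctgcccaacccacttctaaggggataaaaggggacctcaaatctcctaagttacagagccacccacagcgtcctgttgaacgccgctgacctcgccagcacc
Epcam, chr17:87635729-87636028, plus strand: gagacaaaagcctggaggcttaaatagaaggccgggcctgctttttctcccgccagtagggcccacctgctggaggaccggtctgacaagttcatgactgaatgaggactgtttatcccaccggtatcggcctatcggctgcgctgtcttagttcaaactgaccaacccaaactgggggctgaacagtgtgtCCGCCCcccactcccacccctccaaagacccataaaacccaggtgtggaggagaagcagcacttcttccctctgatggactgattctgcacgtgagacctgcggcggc
The Krt5 motif began at -95 from the start site and was present in 8.36% of 32851 promoters of the same length. The Epcam motif began at -58, and GGGCGG was present in 35.7% of promoters. The letters TATAAA, present in 13.6% of promoters, were in neither window.

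Replicate 3 of each group stood apart from replicates 1 and 2. Replicates 1 and 2 of both groups held 20203159 to 25567244 estimated reads each, MSC replicate 3 held 59793645 and TAC replicate 3 held 108156380. No read was found for 6.89% to 8.36% of the genes in replicates 1 and 2, whereas MSC replicate 3 lacked 43.1% of the genes and TAC replicate 3 lacked 28.3%. Mitochondrial ribosomal RNA took 8.28% to 9.07% of the former libraries, 0.236% of MSC replicate 3 and 0.112% of TAC replicate 3. Of 13 RNA polymerase II subunits, which every cell uses, 2 were without a read in MSC replicate 3, Polr2i and Polr2k (named after their values were seen). For a gene listed without a read in that library, each library is therefore given its own value, with no mean for the MSC group. Values are in the deposited unit, an estimated read number plus 1, scaled per library, in which a count of 3 reads equals 0.02 in MSC replicate 3, 0.0114 in TAC replicate 3 and 0.0657 to 0.0869 in the others. The unit is not divided by gene length.

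All 8 listed genes had a higher mean log2 level in TAC than in MSC, both in replicates 1 and 2 and in replicate 3, but none passed the adjusted threshold in limma, or in limma voom on the estimated reads. Over all genes tested, 46.7% were higher in TAC in the first set, 52.3% in the second and 30.1% in both. For 5 of the 8 (Krt17, Cdh1, Epcam, Shh and Trp63) the MSC library of replicate 3 had no read, so the direction in replicate 3 could not have been otherwise and carries no information. Sp6 was closest, at an adjusted p of 0.0836 in limma with Benjamini-Hochberg adjustment over 15391 genes, where 0.422% of genes passed the threshold of 0.05 and 0.039% passed it with TAC higher. At an unadjusted p under 0.05, 3 of the 8 were higher in TAC (Sp6, Epcam and Krt17), against 5.42% of all genes. Epcam and Krt17 entered the test only through their TAC level, and with a minimum mean of 5 the count was 1, so nothing is read from the count of 3. The same limit holds for each count or median of the members below that includes them. In 6 of the 8, every TAC sample was above every MSC sample, which held for 12.3% of all genes (12.2% had every TAC sample below every MSC sample). The 6 include Krt17 and Epcam, and Krt17, Cdh1 and Epcam had no read in MSC replicate 3. With the replicate number as a block, 0 of the 8 passed the adjusted threshold (1.49% of all genes), and 5 were higher in TAC at an unadjusted p under 0.05 (9.43% of all genes), namely Krt5, Krt14, Epcam, Shh and Sp6. Without the block the count also fell to 1 when TAC replicate 2 was left out. The median log2 fold change of the 8 was 1.53, against 0.026 for all genes, where a log2 fold change is a difference of log2(value + 1) and understates the change of low genes. Without MSC replicate 3 the median was 1.00 (all genes -0.13), and in replicates 1 and 2 it was 0.79 (all genes -0.05). Since these medians include Krt17 and Epcam, they are descriptions and nothing is read from them. In these bulk samples, fewer cells of a type and less RNA per cell cannot be told apart.

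**Figure D1:**
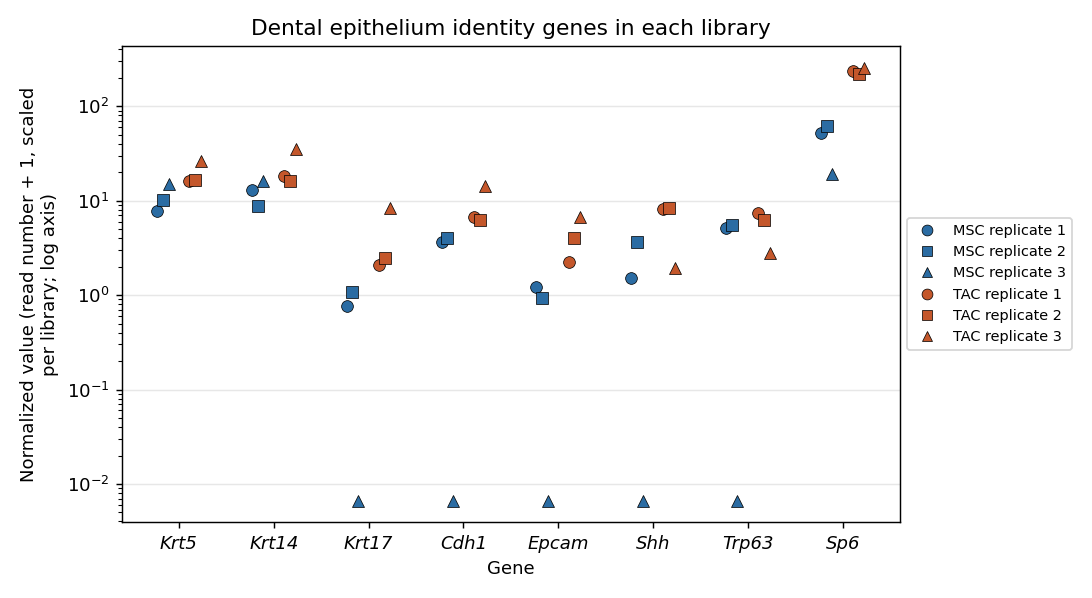
Normalized value (log axis) of each listed dental epithelium identity gene in each library, with colours for the groups and marker shapes for the replicates. TAC points lie above all MSC points for Krt5, Krt14, Krt17, Cdh1, Epcam and Sp6, and 5 genes sit at the lowest value, no read, in MSC replicate 3.

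Krt5 and Krt14 were detected in all 6 libraries. Krt5, the type II keratin of basal epithelial cells, had values, in the order of replicates 1 to 3, of 7.75, 10.2 and 15.0 for MSC and of 16.0, 16.5 and 26.5 for TAC. The lowest TAC sample was just above the highest MSC sample, and replicate 3 was the highest of each group. The means were 11 ± 3.69 in MSC and 19.7 ± 5.94 in TAC (SD, n = 3), a ratio of 1.79. The difference on the log2 scale was 0.80 with a standard error of 0.398 (limma, adjusted p = 0.494). It was nearly the same in the library sets, at 0.80 for replicates 1 and 2 and 0.78 for replicate 3.

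Krt14, the type I partner of Krt5, had values of 12.9, 8.84 and 16.0 in the MSC libraries and 18.1, 16.1 and 35.6 in the TAC libraries. MSC replicate 3 and TAC replicate 2 were nearly level, and TAC replicate 3 stood above the rest. The means were 12.6 ± 3.6 in MSC and 23.3 ± 10.7 in TAC (SD, n = 3), and the ratio was 1.85, with a log2 fold change of 0.79 (standard error 0.424, limma adjusted p = 0.532). Without TAC replicate 3 the log2 fold change was 0.45. Behind these values were 304 to 2406 estimated reads per library in MSC and 671 to 9386 in TAC. Neither keratin had an unadjusted p under 0.05 in limma without the replicate block, and with the block their adjusted p values were 0.186 and 0.2.

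Krt17, a keratin of hair and nail appendages and of epithelium under stress, was low. It had values of 0.773 and 1.07 in MSC replicates 1 and 2 and was listed without a read in MSC replicate 3. The TAC values were 2.1, 2.45 and 8.45, and every TAC library was above every MSC library. Behind them were 28 and 36 estimated reads in the MSC libraries with reads, against 95, 101 and 2228 in the TAC libraries. Its log2 fold change was 1.59 (standard error 0.646, limma, adjusted p = 0.396). Taken by library set, the change was 0.77 for replicates 1 and 2 and 3.23 for replicate 3, where the MSC library had no read.

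The adhesion genes followed the same order. Cdh1, the calcium-dependent cell-cell adhesion molecule of epithelia, had values of 3.65 and 4.06 for MSC replicates 1 and 2, no read for MSC replicate 3, and 6.72, 6.31 and 14.3 for TAC. All TAC libraries were above all MSC libraries. On the log2 scale Cdh1 differed by 1.73 (standard error 0.763, limma, adjusted p = 0.438), with 0.63 for replicates 1 and 2 and 3.93 for replicate 3.

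Epcam, an epithelial cell surface adhesion molecule, had values of 1.23 and 0.927 for MSC replicates 1 and 2, no read for MSC replicate 3, and 2.26, 4.03 and 6.68 for TAC. The groups did not overlap. Epcam differed by 1.62 on the log2 scale (standard error 0.598, limma, adjusted p = 0.346). Without MSC replicate 3 the fold changes were 1.27 for Epcam (limma, adjusted p = 0.215) and 0.97 for Cdh1 (adjusted p = 0.287).

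Shh had values of 1.52 and 3.62 for MSC replicates 1 and 2, no read for MSC replicate 3, and 8.07, 8.29 and 1.92 for TAC. TAC replicate 3 fell between MSC replicates 1 and 2, so the groups overlapped. The log2 fold change of Shh was 1.46 (standard error 0.781, limma, adjusted p = 0.528), with 1.43 for replicates 1 and 2 and 1.54 for replicate 3. Without MSC replicate 3 it was 0.88 (limma, adjusted p = 0.494). In the fit that included the replicate block, the adjusted p of Shh was 0.138 (limma). Among 8 genes that receive or respond to hedgehog signals, all tested, there were 0 at an unadjusted p under 0.05 with TAC higher (5.42% of all genes) and 1 with MSC higher (6.43%). That gene was Boc, a coreceptor for hedgehog ligands, with a log2 fold change of -1.91 (standard error 0.386, limma, adjusted p = 0.114). Ptch1, the hedgehog receptor and a target of the pathway, had a log2 fold change of 0.07, and Gli1, a target transcription factor and the driver gene of the MSC mice, had -0.54 (limma, adjusted p = 0.983 and 0.718). Ptch1 turned to -0.40 without MSC replicate 3 and was at 0.52 without TAC replicate 3. Gli1 was at -0.29 without MSC replicate 3 and at -1.02 without TAC replicate 3.

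The transcription factors behaved differently from each other. Trp63, the p53 family factor of stratified epithelia, had values of 5.14 and 5.59 for MSC replicates 1 and 2, no read for MSC replicate 3, and 7.4, 6.31 and 2.8 for TAC. TAC replicate 3 was below MSC replicates 1 and 2, so the groups overlapped. The log2 fold change of Trp63 was 0.84 (standard error 0.844, limma, adjusted p = 0.761), and it was -0.05 without MSC replicate 3 (limma, adjusted p = 0.962).

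Sp6, also called epiprofin, is a zinc finger factor needed for tooth epithelium to differentiate. In the deposited unit, which is not divided by gene length, it had the highest values of the set. These were 52.4, 61.2 and 19.2 in MSC and 235, 222 and 257 in TAC. Per kilobase it was below Krt14 and Krt5 in MSC replicate 3, at 5.0 against 9.11 and 6.83. All TAC values were above all MSC values, the TAC libraries lay close together, and MSC replicate 3 was the lowest. The means were 44.3 ± 22.2 in MSC and 238 ± 17.9 in TAC (SD, n = 3), a ratio of 5.37. Within library sets the ratio was 4.02 for replicates 1 and 2 and 13.4 for replicate 3. Its log2 fold change was 2.55 (standard error 0.445, limma, adjusted p = 0.0836). Without MSC replicate 3 it was 2.05 (standard error 0.201), and the adjusted p of 0.033 was then past the threshold (limma), as for 1.9% of all genes. Over all alternatives the adjusted p of Sp6 ran from 2.31e-07 to 0.352. Gm11532, on the opposite strand of Sp6, had values of 7.64 and 8.6 for MSC replicates 1 and 2, no read for MSC replicate 3, and 30.1, 37.9 and 51.6 for TAC.

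**Figure D2:**
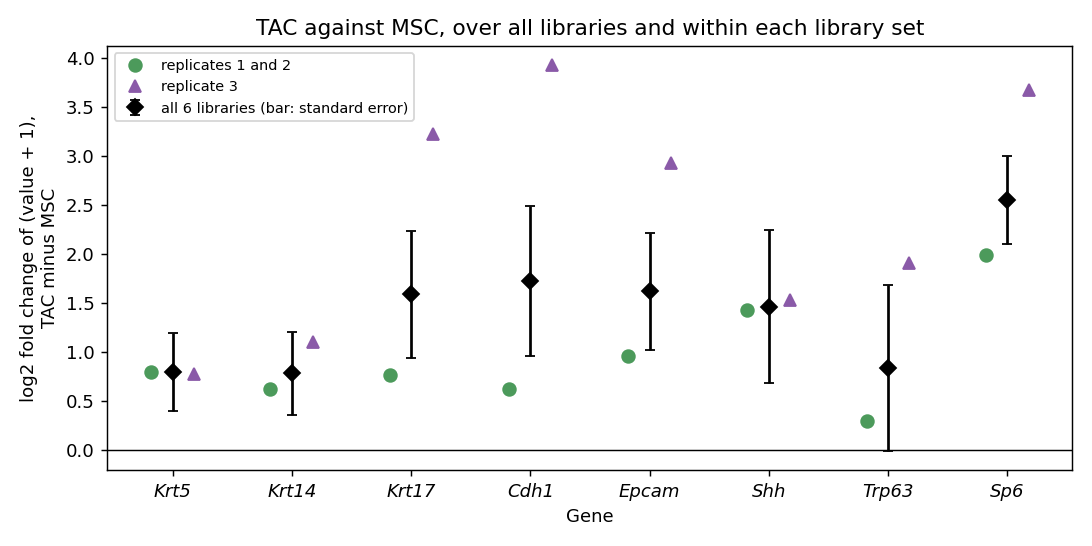
TAC minus MSC difference of log2(value + 1) for each listed gene over all 6 libraries with its standard error, and separately in replicates 1 and 2 and in replicate 3. Sp6 has the largest difference of the 8 over all libraries, 2.55, and Krt5 has nearly the same value in the library sets, 0.80 and 0.78. For Krt17, Cdh1, Epcam, Shh and Trp63 the replicate 3 value is set against an MSC library without a read.

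Because 5 of the 8 genes had no read in MSC replicate 3, the share of other genes with the same fate was counted. Over all genes tested 21.4% had no read there. Among genes within 1.2-fold of the level that each had in MSC replicates 1 and 2, the share without a read was 76.9% for Krt17, 74.5% for Epcam, 54.8% for Shh, 43.7% for Cdh1 and 31.4% for Trp63. It was 17.8% for Krt5, 14.5% for Krt14 and 1.19% for Sp6. In replicates 1 and 2 alone, 7 of the 8 genes, all but Trp63, were higher in TAC at an adjusted p between 2.31e-07 and 0.046 (limma), against 20% of all genes (44.2% in either direction). The 7 include Krt17 and Epcam, which entered the test only through their TAC level, so nothing is read from this count. With 2 samples a group, the test in replicates 1 and 2 measures the spread between those replicates alone. The difference between the library sets itself passed the adjusted threshold for 5 of the 8, a share near the 57.2% of all genes that did. Over all alternatives the adjusted p reached 1 for each of the 8 except Sp6.

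Levels can be compared between genes only after division by the length of their exons. Per kilobase, Sp6 was highest in TAC at 61.9 ± 4.66, followed by Krt14 at 13.2 ± 6.1 and Krt5 at 8.96 ± 2.71 (SD, n = 3). Below Krt5 came Krt17 at 2.79 ± 2.3, Shh at 2.14 ± 1.27, Cdh1 at 1.99 ± 0.988, Epcam at 1.97 ± 1.01 and Trp63 at 0.656 ± 0.287 (SD, n = 3). The ranges of neighbours in this order overlapped, except between Sp6 and Krt14, between Krt5 and Krt17, and between Epcam and Trp63. The length was the union of the exons of all transcripts, 8391 bases for Trp63, whose longest transcript has 5366 bases. A shorter length would raise Trp63, so its place apart from Epcam depends on this choice. Krt17 stood above Shh only through TAC replicate 3, where they were at 5.45 and 0.675. In TAC replicates 1 and 2 Shh was at 2.83 and 2.91 per kilobase and Krt17 at 1.36 and 1.58, without overlap. In MSC replicates 1 and 2, the order began with Sp6 at 14.8, Krt14 at 6.18 and Krt5 at 4.09 per kilobase, and the other 5 genes lay between 0.49 and 0.903. In MSC replicate 3 Sp6 was at 5.0 per kilobase and Krt14 at 9.11.

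The genes did not keep fixed proportions. The Krt5 level per kilobase was 0.481, 0.923 and 0.749 of that of Krt14 in the MSC libraries and 0.709, 0.82 and 0.597 in the TAC libraries, a spread of 1.92-fold with overlapping groups. The ratio of Cdh1 to Krt14 spread 1.62-fold over the 5 libraries with Cdh1 reads. Sp6 was 1.86, 3.17 and 0.548 times Krt14 per kilobase in MSC, and 5.95, 6.3 and 3.31 times in TAC, and every TAC ratio was above every MSC ratio. Over the same 5 libraries the ratio to Krt14 spread 8.05-fold for Trp63 and 9.52-fold for Shh, with TAC replicate 3 the lowest for both. Vim is the intermediate filament gene of mesenchyme. Against it, Krt14 stood per kilobase at 0.0829, 0.0542 and 0.0696 in MSC and 0.152, 0.134 and 0.438 in TAC. Vim itself was lower in TAC, at 420, 440 and 621 in MSC and 321, 325 and 219 in TAC. Of the 12 mesenchyme genes 3 were lower in TAC without overlap and 3 higher, so the ratio depends on the gene chosen. These ratios are descriptions with 3 samples a group and were not tested.

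**Figure D3:**
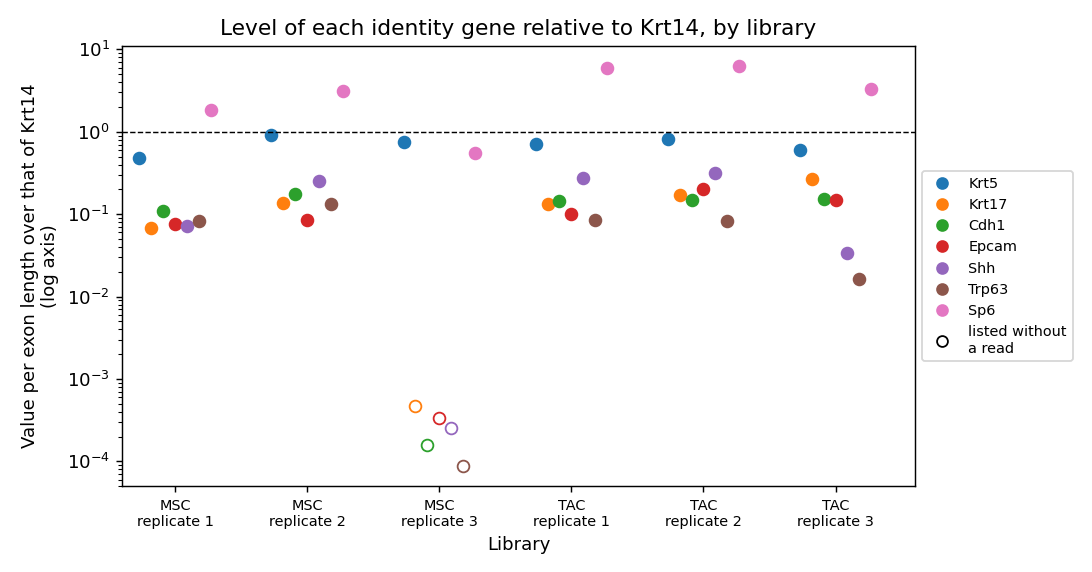
Level per exon length of each gene divided by that of Krt14 in the same library (log axis), with open circles for genes listed without a read. Krt5 stays between 0.481 and 0.923 in all 6 libraries, Sp6 lies above 1 in every library except MSC replicate 3, and Shh and Trp63 are lowest in TAC replicate 3 among libraries with reads.

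The genes whose pattern over the 6 samples was most like that of Krt14, by root mean square difference of centred log2(value + 1), were Ube2n at 0.053, Ilf2 at 0.0776, St14 at 0.0839, Armcx2 at 0.119 and Ppid at 0.12. Of these, St14 encodes matriptase, an epithelial membrane protease. Krt5 ranked 279 among 15390 other genes at 0.282. The other members ranked lower, from 4366 for Krt17 and 4644 for Epcam to 11635 for Shh. All of these except Sp6 had no read in MSC replicate 3, where Krt14 had its highest MSC value, and that library enters the distance. Cdh1 ranked 9054, although its ratio to Krt14 spread 1.62-fold over the libraries with Cdh1 reads. The ranks therefore do not show how these genes followed Krt14 in the other libraries.

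Lists of other epithelial genes were counted in the same test. Of 13 other keratins 5 were listed and 3 tested, and 2 had an unadjusted p under 0.05, both with MSC higher, against 6.43% of all genes in that direction. These were Krt8 and Krt18, the pair of simple epithelia. Krt8 had values of 15.0, 16.2 and 22.2 in MSC and 2.42, 1.95 and 2.4 in TAC, with no overlap and a log2 fold change of -2.51 (standard error 0.425, limma, adjusted p = 0.0764). Krt18 had values of 13.7, 12.6 and 13.0 in MSC and 2.74, 1.92 and 0.971 in TAC, a log2 fold change of -2.34 (standard error 0.477, limma, adjusted p = 0.115). Their direction was opposite to that of Krt5 and Krt14. Without MSC replicate 3 the adjusted p of Krt8 was 0.0389, past the threshold, and over its alternatives it ran from 3.11e-05 to 1 (limma).

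Among 24 cell junction genes 17 were listed and 10 tested. At an unadjusted p under 0.05, 2 were higher in TAC (5.42% of all genes) and 0 in MSC (6.43%). The median log2 fold change was 0.13 and turned to -0.22 without MSC replicate 3 and to -0.18 in replicates 1 and 2. The 2 were the desmosome components Pkp1, with a log2 fold change of 1.53, and Dsc3, with 1.28 (limma, adjusted p = 0.386 and 0.404). Perp and Dsp, also of desmosomes, had 0.15 and 0.62 (limma, adjusted p = 0.931 and 0.912). Pkp1, Dsc3 and Dsp were without a read in MSC replicate 3, and Dsc3 entered the test only through its TAC level. Dsp turned to -0.90 without MSC replicate 3, and Perp to -0.12 without TAC replicate 3. Cldn1, a tight junction claudin, had a log2 fold change of -1.07 (limma, adjusted p = 0.711), which was -0.32 without MSC replicate 3 and -1.90 without TAC replicate 3. In replicates 1 and 2 alone its adjusted p was 0.00671 with MSC higher, and over its alternatives the adjusted p reached 1 (limma).

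All 12 genes that anchor epithelium to its basement membrane were listed and 11 tested, with a median of -0.32, or -0.68 without MSC replicate 3. At an unadjusted p under 0.05, 1 was higher in MSC (6.43% of all genes) and 0 in TAC (5.42%). The 1 was Lama5, a laminin chain, with values of 52.2, 48.2 and 61.1 in MSC and 10.2, 9.73 and 3.78 in TAC. Its log2 fold change was -2.71 (standard error 0.411, limma, adjusted p = 0.0556). Col17a1, a hemidesmosome collagen, had 1.46 (limma, adjusted p = 0.639). It was without a read in MSC replicate 3, and without that library its change was 0.20.

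Of 24 regulators and proteases of epithelium all were listed and 15 tested, 2 with an unadjusted p under 0.05 in the TAC direction (5.42% of all genes) and 0 in the MSC direction (6.43%). The median was 0.57, but 0.24 without MSC replicate 3 and 0.06 in replicates 1 and 2. Tfap2c, a transcription factor of surface ectoderm, had values of 1.55, 3.48 and 5.07 in MSC and 8.54, 11.4 and 12.6 in TAC, with no overlap. Its log2 fold change was 1.51 (standard error 0.513, limma, adjusted p = 0.304). Esrp1, an epithelial splicing factor, had 1.32 (limma, adjusted p = 0.398). It was without a read in MSC replicate 3 and entered the test only through its TAC level.

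**Figure D4:**
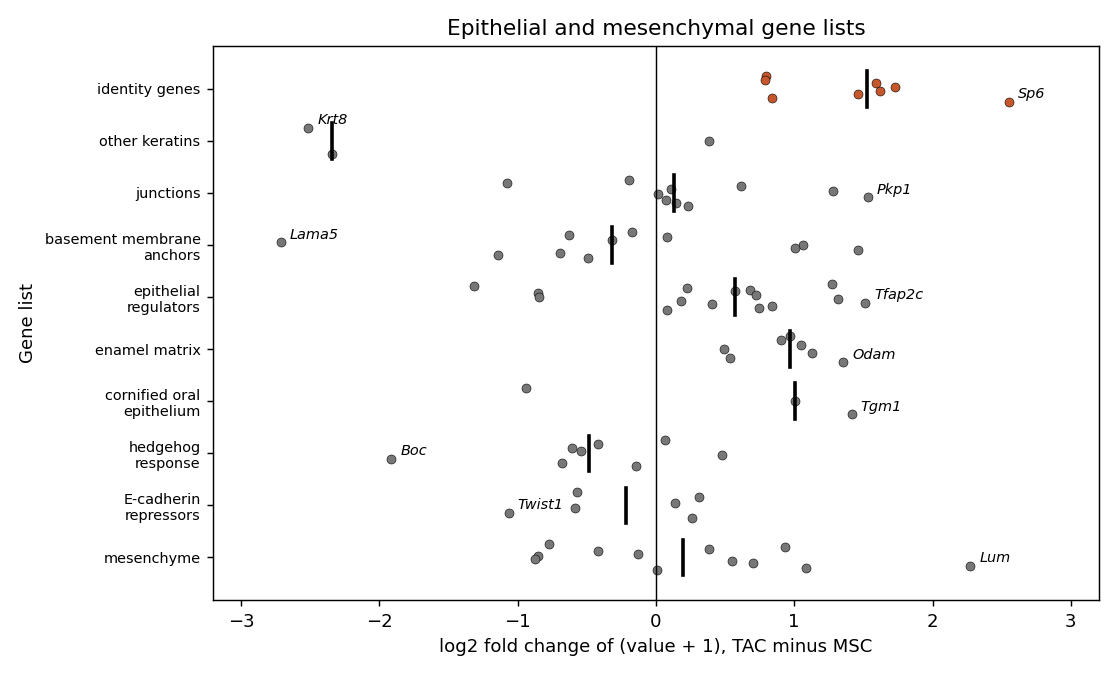
TAC minus MSC difference of log2(value + 1) of each tested gene, by gene list. The listed identity genes all lie above 0, and Krt8, Krt18 and Lama5 lie below -2.

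Markers of the cells around them were read beside the members. Enamel matrix genes, made by ameloblasts, summed to 3690, 3630 and 305 in MSC and 3280, 3350 and 2540 in TAC, and of 7 genes none had an unadjusted p under 0.05 in either direction (limma). Amelx, the main enamel protein gene, had values of 2500, 2490 and 80.6 in MSC and 2100, 2210 and 826 in TAC. In TAC replicate 3, Amelx, Enam and Mmp20 were lowest of the TAC libraries, but Ambn, Klk4, Amtn and Odam were highest of all libraries. Amtn had 5.04, 4.72 and 6.73 in MSC and 1.31, 1.34 and 150 in TAC. Odam had 0.72, 0.695 and 14.2 in MSC and 0.657, 0.791 and 248 in TAC. The median log2 fold change of the enamel list was 0.97 over all libraries, -0.08 in replicates 1 and 2 and 3.34 in replicate 3, beside 1.53, 0.79 and 2.42 for the members. The last of these is set by the 5 members without a read in MSC replicate 3. All 7 enamel genes were positive over all libraries (51.5% of all genes) and 2 of 7 in replicates 1 and 2 (46.7%), and Klk4 entered the test only through its TAC level and had no read in MSC replicate 3. Mesenchyme markers summed to 12500, 12600 and 3750 in MSC and 14300, 14400 and 10200 in TAC, with all 12 genes listed. Lum, a proteoglycan of connective tissue, was the member of that list past the adjusted threshold, with a log2 fold change of 2.27 and TAC higher (standard error 0.285, limma adjusted p = 0.0389, and 0.0376 without MSC replicate 3). This call was lost when replicate 1 or 2 of either group was left out, and over its alternatives the adjusted p of Lum reached 0.498. At an unadjusted p under 0.05 the mesenchyme list held 2 genes higher in TAC, Lum and Dcn (5.42% of all genes), and 2 higher in MSC, Prrx1 and Pdgfrb (6.43%). The part of these cells in the differences of the members was not tested.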

How the data were processed

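RNA sequencing values were deposited for 3 MSC and 3 TAC samples of laser-captured mouse incisor. The submitters' processing notes name CASAVA 1.8.2, TopHat2 2.0.8, Partek and build mm10. The methods describe RPKM values, but the low values of a library shared 1 step whatever the gene length, so the deposited values were used as a signal: an estimated read number plus 1, scaled per library by the authors. How reads were counted, and whether strand was used, is not given in the sources used here. The planned log-scale test suits this unit. Estimated reads came from dividing each library's values by its smallest value and subtracting 1, and because only 66.8% to 76.5% of low values came out whole within 0.05 reads, no count model was used as the main test. Every listed gene had 10 or more estimated reads in at least 1 library. Intervals for counting error were not computed, and a floor of 3 reads was used.

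The members and lists were chosen with earlier results of these data known. Values were taken as log2(value + 1) and limma 3.58.1 in R 4.3.3 was fitted with a variance trend to the 15391 genes averaging 1 or more across the 6 samples, two-sided, with Benjamini-Hochberg adjustment over all of them at 0.05. The fit was tested on simulated data with the same spread in every library and no difference of replicate 3. That test therefore does not show how the fit behaves on these libraries. Named genes were the members and, from each other list, up to 3 with the smallest p and up to 2 with the highest mean, from which those described were taken. Predicted genes and clone names were left out when the genes most like Krt14 were named, but the ranks count all tested genes. Alternatives were other pseudocounts, filters, scalings and variance models, limma voom on estimated reads, the replicate block, each sample left out, and treatments of replicate 3 apart. The sample numbers were taken to pair the samples. Same-numbered samples deviated together across genes (correlations 0.477, 0.465 and 0.517). MSC replicate 2 with TAC replicate 1 (0.48) and MSC replicate 1 with TAC replicate 2 (0.462) did so as well. The correlations therefore follow the difference of replicate 3 from the others and do not show which of replicates 1 and 2 belong together. For these the block rests on the numbers alone. Replicates 1 and 2 were not 1 library deposited again. Between them the mean chi-square per gene was 10.3 in MSC and 8.45 in TAC, where sampling noise gives 1. Against replicate 3 it was 1880 in MSC and 2290 and 2310 in TAC, so replicates 1 and 2 were far closer to each other. The value cannot tell whether replicates 1 and 2 came from separate mice. Symbols were matched to GENCODE M21 (94.6%), and 6 of the 8 members had the same start and end there. A withheld item is not reported here.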

Additional observations from a re-analysis of the deposited data

Results flagged for a closer look

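For 5 of the 8 genes the TAC minus MSC difference of log2(value + 1) in replicate 3 passed limma's test of its difference from that in replicates 1 and 2, adjusted over all genes. This share is near that of all genes, 57.2%, and is not a result about these genes. Replicate 3 exceeded replicates 1 and 2 by 2.46 for Krt17 (limma, adjusted p = 0.00129), by 3.30 for Cdh1 (adjusted p = 0.000178), by 1.97 for Epcam (adjusted p = 0.00872), by 1.62 for Trp63 (adjusted p = 0.00709) and by 1.68 for Sp6 (adjusted p = 5.29e-05). Replicate 3 is 1 sample a group, and the error of the test is the spread between replicates 1 and 2 alone. In Krt17, Cdh1, Epcam and Trp63 the MSC library of replicate 3 had no read, so its part in the difference was fixed by that zero, and in Sp6 it had the lowest of the 6 values. For Krt5, Krt14 and Shh the difference between library sets was -0.02, 0.48 and 0.11 (limma, adjusted p = 0.96, 0.218 and 0.875). Shh too had no read in MSC replicate 3, so its value there shows no likeness between the library sets.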

How the results depend on the processing

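With 3 samples a group and library sets that cut across the groups, the number of calls moved with the model. Over all genes 65 passed the adjusted threshold, and the count was 29 without the variance trend, 23 with voom, 38 with a pseudocount of 0.1, 27 with equal totals, 114 with quantile scaling, 1814 with the library set as a term, 6796 in replicates 1 and 2 alone and 10 with replicates 1 and 2 averaged. Leaving out 1 sample gave 0 to 292 genes, with 292 without MSC replicate 3, 36 without TAC replicate 3 and 0 for each of the others (1028 to 1367 at an unadjusted p under 0.05). Among the identity genes 0 passed, against 2 with the library set as a term (Shh and Sp6), 7 in replicates 1 and 2 alone, and 0 to 1 with 1 sample left out (Sp6, without MSC replicate 3). At an unadjusted p under 0.05 the count of 3 became 1 with a pseudocount of 0.1, with a minimum mean of 5 and with replicates 1 and 2 averaged, 6 with the library set as a term, 7 in replicates 1 and 2 alone, and 1 to 3 with 1 sample left out, the lowest without TAC replicate 2. With the replicate block, 229 of all genes and 0 of the identity genes passed the adjusted threshold, and 5 identity genes had an unadjusted p under 0.05, against 9.43% of all genes. The block changed no adjusted call of an identity gene. Of the genes in the other lists, 1 passed (Lum), against 0 without the trend, with voom, with equal totals and with averaging, 4 with quantile scaling, 11 with the library set as a term, 40 in replicates 1 and 2 alone and 0 to 2 with 1 sample left out. Over single identity genes, 129 alternatives kept direction and side of the threshold, 10 moved past it and 1 turned direction, Trp63, which ran from -0.048 to 1.307 with 1 sample left out, the lowest without MSC replicate 3. Sizes moved more: with voom the log2 fold changes were 6.95 for Krt17, 7.11 for Cdh1, 6.63 for Epcam, 5.18 for Shh and 5.42 for Trp63, the 5 genes with a library at 0 reads, and with a pseudocount of 0.1 they lay between 1.82 for Trp63 and 2.94 for Epcam. Depth limits Krt17, Epcam and Shh most, with 28 to 124 reads in MSC replicates 1 and 2.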

Other observations

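Genes that repress E-cadherin in mesenchyme were all listed and tested. Of these 6, none had an unadjusted p under 0.05 in either direction (limma), and the median log2 fold change was -0.22, or -0.61 without MSC replicate 3. Twist1 had -1.07, Zeb1 -0.57 and Snai2 -0.59 (limma, adjusted p = 0.61, 0.679 and 0.709). The other 3 went the opposite way, Zeb2 at 0.31, Twist2 at 0.26 and Snai1 at 0.14 (limma, adjusted p = 0.933, 0.814 and 0.899). Zeb2 turned to -0.52 without MSC replicate 3. Twist1 was at -1.78 without MSC replicate 3 (limma, adjusted p = 0.0958), and Zeb1 at -0.09 without TAC replicate 3.

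Genes of cornified oral epithelium, which lines the mouth around the tooth, were read as markers of another epithelium. Of 11 genes 5 were listed and 3 tested, and none had an unadjusted p under 0.05 (limma). Their summed value was 21.8, 18.5 and 11.7 in MSC and 15.2, 15 and 32.4 in TAC. Tgm1, a transglutaminase of the cornified envelope, had a log2 fold change of 1.42 with a standard error of 0.976 (limma, adjusted p = 0.638). It was without a read in MSC replicate 3, and its change was 0.23 without that library and 0.01 in replicates 1 and 2. Dmkn had 1.00 (limma, adjusted p = 0.629) and also lacked reads in MSC replicate 3. Sbsn went the other way, at -0.94 (standard error 0.557, limma, adjusted p = 0.574). Fitted without either replicate 3 library, Sbsn changed by -1.25, which limma placed past the threshold (adjusted p = 0.00254).

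Mki67, a marker of dividing cells, had a log2 fold change of 1.97 with TAC higher (standard error 0.748, limma, adjusted p = 0.361). When the replicate number was a block the adjusted p was 0.0442, past the threshold, and over its alternatives it ran from 1.21e-08 to 1. Axin2, the driver gene of the TAC mice, differed by 0.60 (limma, adjusted p = 0.758), by 0.18 in replicates 1 and 2, and by -0.08 without MSC replicate 3, where the direction turned.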
